A study of Mus musculus with 30 samples.

Results

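The PAR bZIP and DEC clock output factors are 6 transcription factor genes, Dbp, Tef, Hlf, Nfil3, Bhlhe40 and Bhlhe41, chosen by symbol from the 56951 gene symbols of the expression tables. Each of the 6 was listed on 1 row, and 6 of 6 passed the filter on low values, which left 12030 genes for testing. RNA-seq of gastrocnemius muscle, which included the plantaris, gave 1 library per mouse from 14 LD and 16 ADV mice. All mice were wild-type C57BL/6J males, housed singly with a running wheel and 14 weeks old when the light schedules began. The LD group stayed for 64 weeks on a fixed light-dark cycle, and the ADV group had its cycle moved 8 h earlier every 4 days over the same 64 weeks. Muscles were taken across the light phase, when both groups were on the same cycle. At what hour a given mouse was sampled is not given in the labels, so a change in level and a shift in phase cannot be told apart, and in bulk muscle RNA fewer cells of a type cannot be told apart from less RNA per cell.

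In the circadian clock, BMAL1 and CLOCK bind E-boxes and drive their own inhibitors together with a set of output factors. The PAR bZIP proteins DBP, TEF and HLF activate genes that carry a D-box, and NFIL3 (E4BP4) binds the same D-box as a repressor, so that the balance of both arms sets D-box gene rhythms. The DEC proteins, encoded by Bhlhe40 (DEC1) and Bhlhe41 (DEC2), repress E-box genes by competing with BMAL1 and CLOCK. Transcription of Dbp is known to be driven by E-boxes, and that of Nfil3 to be repressed through ROREs by REV-ERBα, the product of Nr1d1.

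The regulatory letters near the 6 start sites are shown because they are the elements through which these factors are known to be wired to the clock and to each other. Motifs were searched on both strands of GRCm39, the E-box CACGTG, the D-box (TTATGTAA, TTACATAA or TTACGTAA) and the RORE consensus, with no overlap between them. The 250 bases before the start of Dbp (chr7:45354262-45354511, plus strand) held 1 RORE, in capitals, and a RORE was present in 0.2% of the equal windows of 12025 tested genes. No exact match to this RORE consensus was found in the same window of Nfil3, nor in the 4000 bases centred on its start. Of tested genes, 5.56% held at least 1 in such 4000 bases. ROREs that depart from these letters were not searched. Both windows were placed by the start in the deposited table. The GENCODE vM39 annotation starts Nfil3 farther out, at chr13:53135367, so the 250-base window (chr13:53135110-53135359, minus strand) lies inside that longer gene. The 250 bases before the start of Tef (chr15:81695365-81695614, plus strand) held 1 E-box, in capitals, and 8.29% of such windows held at least 1. Among the 6 factors, Bhlhe41 also held 1 E-box in that window, printed further below.
Dbp upstream: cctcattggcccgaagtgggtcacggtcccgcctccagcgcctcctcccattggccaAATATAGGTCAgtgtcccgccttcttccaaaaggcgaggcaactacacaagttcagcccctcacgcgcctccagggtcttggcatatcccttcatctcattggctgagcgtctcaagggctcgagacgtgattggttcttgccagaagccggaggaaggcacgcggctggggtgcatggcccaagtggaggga
Tef upstream: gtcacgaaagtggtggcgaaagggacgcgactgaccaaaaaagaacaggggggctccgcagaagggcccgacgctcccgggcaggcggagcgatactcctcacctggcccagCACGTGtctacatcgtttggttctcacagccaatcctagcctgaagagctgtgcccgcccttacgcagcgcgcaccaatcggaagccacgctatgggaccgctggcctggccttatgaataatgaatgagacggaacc

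Within the 4000 bases centred on each start, E-boxes were found in 5 of 6 genes, against 48% of all tested genes. Bhlhe40 held 4, Tef and Bhlhe41 held 3 each, and Hlf and Nfil3 held 1 each, where 3 or more occurred in 4.58% of genes. Dbp held none there, but 2 E-boxes lay in its introns, 2625 and 2738 bases after the start, and 17.8% of genes had 2 or more E-boxes in the same first 5116 bases. D-boxes were found in 1 of the 6 genes, Nfil3, whose first intron carried 2 of them, 362 and 1278 bases after the start. At least 1 D-box was present in 14.5% of genes and 2 or more in 1.53%. The following stretches run 5′ to 3′ along the gene with the motif in capitals.
Dbp intronic E-box, chr7:45357136-45357141: attccctcgcCACGTGagtccgcctt
Dbp intronic E-box, chr7:45357249-45357254: ctgtaggccaCACGTGatgcggccct
Nfil3 intronic D-box, chr13:53134741-53134748, minus strand: ggggcatgcaTTACATAAacttttgctg
Nfil3 intronic D-box, chr13:53133825-53133832, minus strand: aaatgtgaggTTATGTAActgccgaatt
Bhlhe40 E-box, chr6:108637333-108637338: cgttgtccaaCACGTGaggctcatgt
Bhlhe41 E-box, chr6:145811294-145811299, minus strand: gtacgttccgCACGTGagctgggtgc
Such matches describe the letters only, and binding was not measured. The start of Bhlhe40 in the deposited table lies inside the longer gene of the GENCODE vM39 annotation, so the E-box printed for it, which precedes the start in the table, is not upstream in that annotation. The E-box printed for Bhlhe41 lies just before the table's start and overlaps the GENCODE start. The D-box distances given for Nfil3 also run from the table's start, which lies inside its GENCODE gene.

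Dbp, Tef, Hlf and Bhlhe40 were lower and Nfil3 was higher in ADV than in LD muscle, each at an edgeR FDR (Benjamini-Hochberg adjusted p) under 0.05. At any fold change, 5 of 6 factors passed that FDR, where 10.8% of the 12030 tested genes did (5.2% lower and 5.61% higher in ADV). With a fold change over 1.3 required as well, 3 of 6 were differentially expressed, Dbp, Bhlhe40 and Nfil3, against 2.09% of tested genes (0.648% lower, 1.45% higher). No factor had FPKM ranges that did not overlap between the groups, which occurred in 0.00831% of tested genes. The median log2 fold change of all tested genes was 0.00285.

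Among the D-box activators, Dbp moved most. It lies on chromosome 7 at chr7:45354512-45359627 (GRCm39, plus strand, 4 exons). In LD muscle its level ranged from 3.36 FPKM in LD 34 through a median of 25.4 to 56.9 FPKM in LD 30. In ADV muscle it ranged from 3.98 FPKM in ADV 31 through a median of 8.24 to 17.8 FPKM in ADV 21. All 16 ADV mice were below the LD median and 10 of 14 LD mice were above every ADV mouse, while LD 34 was below every ADV mouse. The log2 fold change (ADV against LD) was -1.66 ± 0.255 (SE; 95% interval -2.18 to -1.14; edgeR FDR = 4.82e-04), a level 0.317 times that of LD, and it was the sixth smallest p of all tested genes. These values rest on 192 to 2340 reads per LD library and 190 to 704 per ADV library. On the opposite strand, exons of Sphk2 overlap 29.3% of the exon bases of Dbp, and the libraries were stranded but the strand setting of the counting is not given in the sources used here. Sphk2, a sphingosine kinase gene, went the other way, from 4.15 to 5.30 FPKM (log2 fold change 0.34, edgeR FDR = 0.00227).

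**Figure D1:**
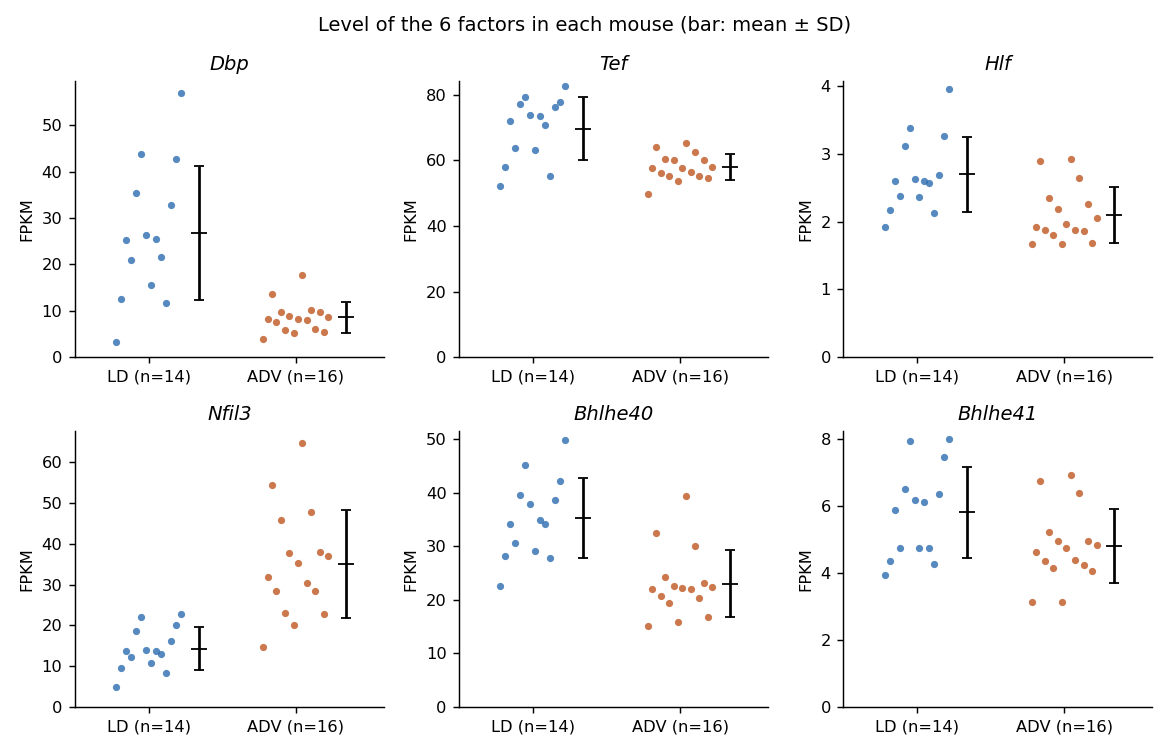
Level in FPKM of the 6 factors in each of 14 LD and 16 ADV mice (points), with mean ± SD as bars and each vertical axis starting at 0. Against LD medians of 25.4 FPKM for Dbp and 13.7 FPKM for Nfil3, all 16 ADV mice sit below the first and above the second.

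Tef was the most abundant of the 6 factors per length and changed by less than Dbp. It lies at chr15:81695615-81710899 (plus strand, 4 exons). Its level in LD ranged from 52.3 FPKM in LD 21 through a median of 72.8 to 82.6 FPKM in LD 33, and in ADV from 49.7 FPKM in ADV 24 through a median of 57.7 to 65.3 FPKM in ADV 23. As with Dbp, 16 of 16 ADV mice were below the LD median, and 9 of 14 LD mice were above the ADV range. The log2 fold change was -0.28 ± 0.061 (SE; 95% interval -0.41 to -0.16; edgeR FDR = 0.00485), past the FDR but short of a fold change of 1.3.

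Hlf was the least abundant of the 6. It lies at chr11:90227362-90281721 (minus strand, 4 exons). Its level ranged in LD from 1.91 FPKM in LD 34 through 2.60 to 3.96 FPKM in LD 30, and in ADV from 1.66 FPKM in ADV 27 through 1.94 to 2.92 FPKM in ADV 21. Of the ADV mice, 13 of 16 were below the LD median and 7 of 16 were below every LD mouse. Of the LD mice, 4 of 14 were above every ADV mouse. The log2 fold change was -0.38 ± 0.099 (SE; 95% interval -0.58 to -0.17; edgeR FDR = 0.0163), just inside the log2 limit of 0.3785 that a fold change of 1.3 sets. When each library was left out in turn the FDR stayed under 0.05 in 30 of 30 fits and the fold limit was passed in 15 of 30. With each library's trend with GC content removed, the log2 fold change of Hlf was -0.32 and its edgeR FDR 0.0544.

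Nfil3, the repressor at the same D-boxes, was higher in the ADV group. It lies at chr13:53121245-53135109 (minus strand, 2 exons). Its level in LD ranged from 4.77 FPKM in LD 30 through a median of 13.7 to 22.7 FPKM in LD 35, and in ADV from 14.6 FPKM in ADV 27 through a median of 33.6 to 64.7 FPKM in ADV 25. Every one of the 16 ADV mice exceeded the median LD mouse, 14 of 16 were above every LD mouse, and 9 of 14 LD mice were below every ADV mouse. The log2 fold change was 1.28 ± 0.200 (SE; 95% interval 0.87 to 1.68; edgeR FDR = 4.89e-04), a level 2.42 times that of LD and the ninth smallest p. The lncRNA Gm40950 on the opposite strand overlaps 16.9% of its exon bases.

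**Figure D2:**
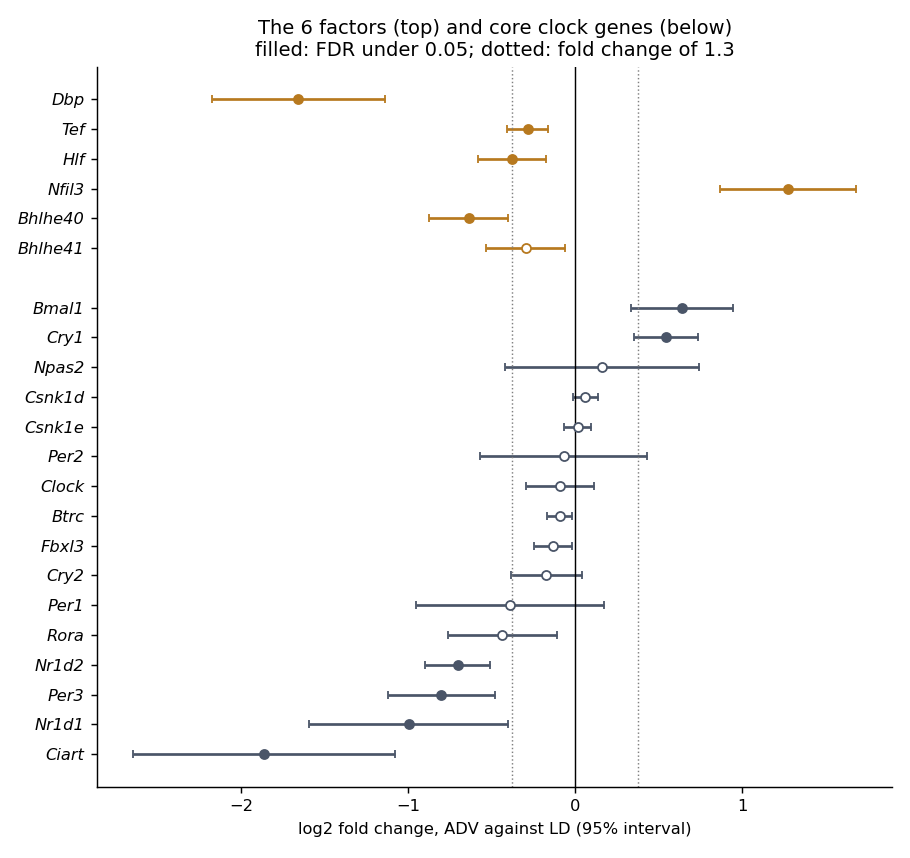
Log2 fold change, ADV against LD, with 95% intervals for the 6 factors (top) and 16 core clock genes (below); filled points have an FDR under 0.05 and dotted lines mark a fold change of 1.3. Dbp lies at -1.66 and Nfil3 at 1.28, and Hlf at -0.38 touches the dotted line.

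Because DBP, TEF and HLF share their binding site with NFIL3, activator levels were set against Nfil3 within each mouse, as a description without a test. The ratio of Dbp to Nfil3 in FPKM ranged in LD from 0.152 in LD 34 through a median of 1.91 to 11.9 in LD 30, and in ADV from 0.108 in ADV 31 through 0.201 to 0.881 in ADV 21. Dbp exceeded Nfil3 in 9 of 14 LD mice and in 0 of 16 ADV mice. For Tef, the log2 ratio to Nfil3 was 2.38 ± 0.716 (SD, n = 14) in LD and 0.82 ± 0.611 (SD, n = 16) in ADV, and Tef stayed above Nfil3 in 14 of 14 LD and 15 of 16 ADV mice. Hlf was below Nfil3 in every mouse of both groups, with log2 ratios of -2.33 ± 0.824 (SD) and -3.99 ± 0.652 (SD). Averaged over the 3 activators, the log2 ratio was 0.27 ± 0.991 (SD) in LD and -1.73 ± 0.692 (SD) in ADV, lower by 2.00 on the log2 scale. Each of the 16 ADV mice was below the LD median of all these ratios. Since Dbp, Tef and Hlf were lower and Nfil3 was higher, the ratios combine changes already given above.

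**Figure D3:**
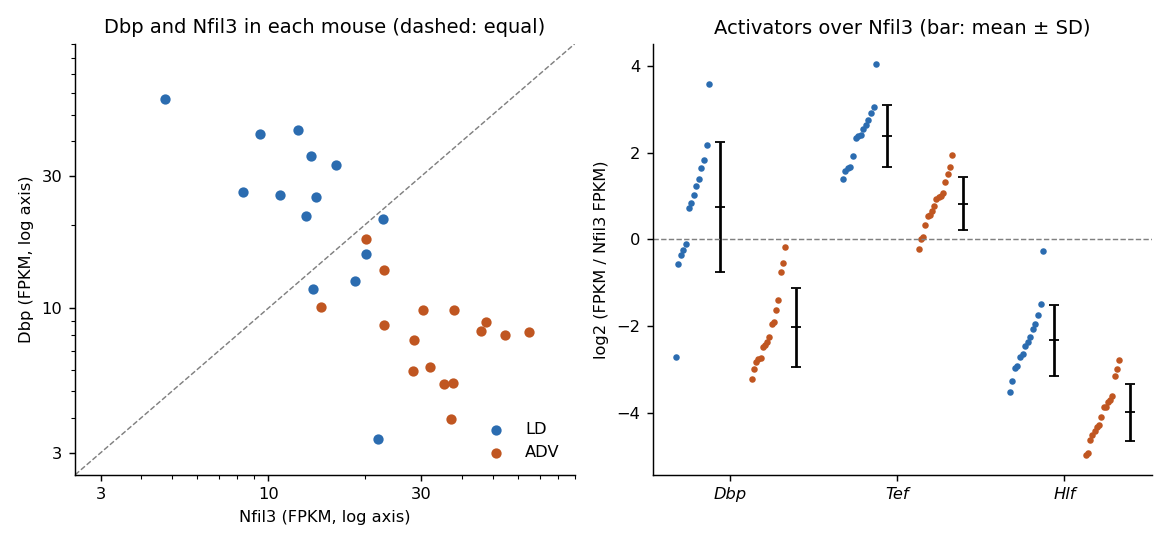
Left, Dbp against Nfil3 in FPKM for each mouse on log axes, with a dashed line where both are equal; right, log2 ratio of Dbp, Tef and Hlf to Nfil3 per mouse (LD blue, ADV orange, points ordered by value) with mean ± SD. Of the LD mice 9 of 14 lie above the dashed line, and of the ADV mice 0 of 16 do.

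The order of the 6 factors by mean FPKM differed between the groups at Nfil3. In LD it was Tef, Bhlhe40, Dbp, Nfil3, Bhlhe41 and Hlf. Of the neighbours, Bhlhe40 exceeded Dbp in 10 of 14 mice and Dbp exceeded Nfil3 in 9 of 14. Dbp was thus not separated from Bhlhe40 or from Nfil3 beyond the spread between mice. Bhlhe40 exceeded Nfil3 in every LD mouse, by least in LD 34. Tef exceeded Bhlhe40 and Bhlhe41 exceeded Hlf in 14 of 14. In ADV the order was Tef, Nfil3, Bhlhe40, Dbp, Bhlhe41 and Hlf. Nfil3 exceeded Bhlhe40 in 14 of 16 ADV mice and Bhlhe40 exceeded Dbp in 16 of 16.

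Of the DEC repressors, Bhlhe40 was lower in ADV. It lies at chr6:108637590-108643886 (plus strand, 5 exons). Its level in LD ranged from 22.6 FPKM in LD 34 through a median of 34.5 to 49.8 FPKM in LD 36, and in ADV from 15.1 FPKM in ADV 30 through a median of 22.1 to 39.4 FPKM in ADV 27. Of the ADV mice, 15 of 16 were below the LD median and 11 of 16 were below every LD mouse. The log2 fold change was -0.64 ± 0.116 (SE; 95% interval -0.87 to -0.40; edgeR FDR = 0.00152).

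Bhlhe41, at chr6:145803969-145811284 (minus strand, 5 exons), did not pass the test. It ranged in LD from 3.95 FPKM in LD 22 through 6.00 to 8.00 FPKM in LD 36, and in ADV from 3.14 FPKM in ADV 31 through 4.68 to 6.91 FPKM in ADV 27. The log2 difference was -0.30 ± 0.116 (SE; 95% interval -0.53 to -0.06; edgeR FDR = 0.0865), and 13 of 16 ADV mice were below the LD median. Its interval overlaps that of Bhlhe40, and the difference between both DEC genes was not tested. The ratio of Bhlhe40 to Bhlhe41 in FPKM was 6.20 ± 1.12 (SD, n = 14) in LD and 4.91 ± 1.26 (SD, n = 16) in ADV, with overlapping ranges of 4.10 to 9.04 and 3.34 to 7.37. Transcripts on the opposite strand overlap 5.69% of the exon bases of Bhlhe40 and 16.2% of those of Bhlhe41.

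The extremes of several factors fell in the same mice. LD 30 had the highest Dbp and Hlf and the lowest Nfil3 of its group, together with the lowest level of Bmal1, the gene of the E-box activator, at 5.75 FPKM. LD 34 had the lowest Dbp, Hlf and Bhlhe40, the highest Bmal1 at 14.8 FPKM and the lowest Nr1d1 at 37.0 FPKM, and its Nfil3 was 22.04 FPKM. In the ADV group, ADV 21 had the highest Dbp and Hlf with the lowest Bmal1 at 6.75 FPKM, and ADV 31 had the lowest Dbp and Bhlhe41 with the highest Bmal1 at 21.6 FPKM. Without LD 34 the log2 fold change of Dbp was -1.75, and without LD 30 it was -1.52.

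Within-group correlations of log2 CPM were computed among the 6 factors and between each factor and Bmal1, Nr1d1 and Fos, 66 relations in all, with permutation p-values adjusted over the 66. Of these, 12 had an adjusted p of Pearson's r under 0.05, 11 in LD and 1 in ADV, and in 5, all in LD, Spearman's rho passed as well. Whether a correlation differed between LD and ADV was not tested. Mice of a group were sampled across the light phase, and the hour of each mouse is not given and was not modelled. A correlation between mice therefore cannot be told apart from a shared dependence on the hour of sampling.

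In LD muscle, Dbp levels were correlated with those of Tef and Bhlhe41 and inversely with those of Bmal1. For Dbp and Tef, Pearson's r was 0.757 (permutation p = 0.00116, adjusted p = 0.0214) and Spearman's rho 0.749 (permutation p = 0.00286, adjusted p = 0.0378), and r was 0.811 without the 2 mice farthest from the median of Dbp, LD 30 and LD 34 (adjusted p = 0.0475). For Dbp and Bhlhe41, r was 0.766 (permutation p = 3.4e-04, adjusted p = 0.0112) and rho 0.807 (permutation p = 9e-04, adjusted p = 0.0297), and r was 0.799 without these mice. Bmal1 and Dbp had an r of -0.79 (permutation p = 1.9e-04, adjusted p = 0.0112) and a rho of -0.811 (permutation p = 7.5e-04, adjusted p = 0.0297), and r was -0.717 without LD 30 and LD 36, the farthest from the median of Bmal1.

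Nfil3 was correlated with Bhlhe40 at r = -0.732 (permutation p = 0.00293, adjusted p = 0.0322) and rho = -0.723 (permutation p = 0.00479, adjusted p = 0.0527) in LD, and r was -0.838 without LD 30 and LD 35. For Dbp against Nfil3, activator against repressor, r was -0.641 in LD (permutation p = 0.0167, adjusted p = 0.0688; rho -0.697, adjusted p = 0.0658) and -0.449 without LD 30 and LD 34. In ADV this r was -0.354 (permutation p = 0.180, adjusted p = 0.331; rho -0.321, adjusted p = 0.408). Neither passed after adjustment.

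The other LD relations with an adjusted p of r under 0.05 were Dbp with Hlf (0.720), Dbp with Bhlhe40 (0.740), Tef with Hlf (0.715), Tef with Bhlhe41 (0.769), Bhlhe40 with Bhlhe41 (0.710), Bmal1 with Tef (-0.704) and Bmal1 with Bhlhe41 (-0.707). None of these 7 passed once the 2 farthest mice were left out, which leaves 12 mice. Without them r was 0.470 for Dbp with Hlf, 0.463 for Dbp with Bhlhe40, 0.591 for Bhlhe40 with Bhlhe41 and -0.539 for Bmal1 with Bhlhe41. It moved less for Tef with Hlf (0.698), Tef with Bhlhe41 (0.661) and Bmal1 with Tef (-0.650). Over all LD mice, Spearman's rho also passed for Tef with Hlf (0.745) and Tef with Bhlhe41 (0.754), with an adjusted permutation p of 0.0378 for each. For the rest of these 7 it did not. In ADV the 1 relation that passed was Bmal1 with Dbp, at r = -0.654 (permutation p = 0.00683, adjusted p = 0.0376) but rho = -0.429 (permutation p = 0.0970, adjusted p = 0.259), and r was -0.454 without ADV 21 and ADV 24. No factor passed with Nr1d1, whose product represses Nfil3, or with the immediate early gene Fos, in either group.

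**Figure D4:**
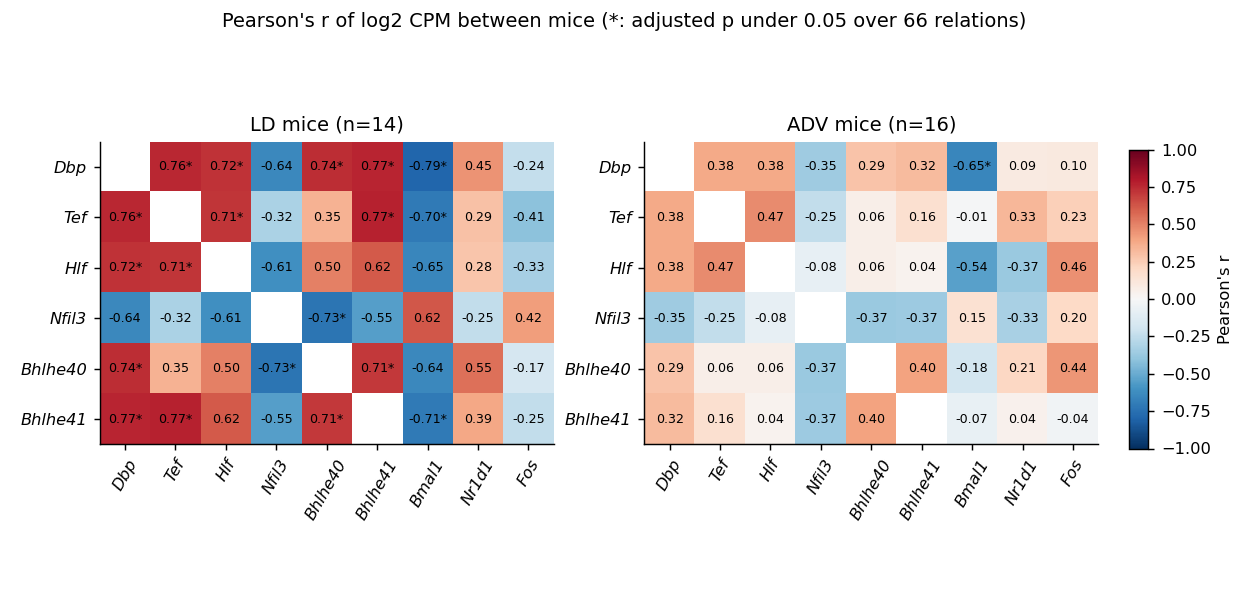
Pearson's r of log2 CPM between the 6 factors, Bmal1, Nr1d1 and Fos in 14 LD mice (left) and 16 ADV mice (right), with asterisks where the adjusted p over 66 relations is under 0.05. Asterisks mark 11 relations in LD (each pair of factors appears in both its cells) and 1 in ADV.

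With the log2 CPM of Bmal1 added to the edgeR model, the ADV against LD differences were smaller. The log2 difference of Dbp was -0.79 (SE 0.239, edgeR FDR = 0.0943), and Tef (-0.17, FDR = 0.229), Hlf (-0.13, FDR = 0.503) and Bhlhe40 (-0.44, FDR = 0.105) also no longer passed. Nfil3 was still higher, by 1.002 on the log2 scale (edgeR FDR = 0.0362). Bmal1 itself was higher in ADV, from 10.2 ± 3.14 to 16.1 ± 4.07 FPKM (SD; log2 fold change 0.64, edgeR FDR = 0.00844), so the covariate differs between the groups, and across all tested genes this model called 45 differentially expressed genes in place of 252.

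The spread between mice was compared as the absolute deviation of log2 CPM from the group median. For Dbp it averaged 0.704 in LD and 0.384 in ADV, a difference of -0.32 (95% interval -0.73 to 0.09; limma FDR = 0.798), and without LD 34 the difference was -0.15. For Tef the averages were 0.163 and 0.0855 (difference -0.08, 95% interval -0.17 to 0.02, limma FDR = 0.798). The difference was -0.0057 for Hlf, -0.0024 for Nfil3, 0.012 for Bhlhe40 and -0.07 for Bhlhe41. None of the 6 passed the limma FDR and none had an unadjusted p under 0.05, although with deviations taken from the group mean Tef had an unadjusted p of 0.0105 (limma FDR = 0.372) and on log2(FPKM + 0.1) of 0.0488 (limma FDR = 0.823). Of all tested genes, 1 (0.00831%) passed the FDR with deviations from the median and 725 had an unadjusted p under 0.05.

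The genes most like each factor over the 30 mice, by Spearman's rho of log2 CPM after the group mean was removed, are given as a description among 12029 genes. Gstt2, a glutathione S-transferase gene, was most like Dbp (0.80), followed by Asb8 (0.72) and Plxdc2 (0.71), and Miga2 (-0.74) and Bmal1 (-0.73) were most opposite. Tef ranked 12 and Bhlhe41 ranked 13 of 12029 for likeness to Dbp. Cry2, a core clock repressor gene, was most like Tef (0.72), with Rnmt (0.72) and Tbc1d17 (0.70), against Abtb2 (-0.73) and Map6 (-0.72). For Hlf the leading genes were Mylk4 (0.75), the clock gene Per2 (0.74) and Lrrn4cl (0.71), and the most opposite were Mmab (-0.71) and Pitrm1 (-0.68).

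Nfil3 had the closest likeness of the 6, to Atoh8 (0.83), a bHLH factor gene, then to Sdc4 (0.78), which encodes the heparan sulfate proteoglycan syndecan-4, and to Tinagl1 (0.78), with Ebf2 (-0.72) and Afdn (-0.69) most opposite. All 3 like genes were also higher in ADV, by 0.52 for Atoh8 (edgeR FDR = 0.00966), 0.41 for Sdc4 (0.0453) and 0.58 for Tinagl1 (0.0173) on the log2 scale. At an FDR under 0.05, 5.61% of all tested genes were higher. Bhlhe40 was most like Srp14 (0.67) and Srp19 (0.62), subunit genes of the signal recognition particle, and the proteasome gene Psmb1 (0.60), against Pawr (-0.67) and Pak2 (-0.63). Srp14, Srp19 and Psmb1 did not pass between the groups, with log2 differences of 0.03, 0.04 and 0.08. Group differences of the genes most like Dbp, Tef, Hlf and Bhlhe41 are not given here. Bhlhe41 was most like Ganc (0.72), Tor3a (0.72) and Chpf2 (0.69), and its most opposite genes were Emp2 (-0.80) and Josd1 (-0.79).

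Of 16 tested core clock genes, 2 were higher and 4 lower in ADV at an edgeR FDR under 0.05. Of all tested genes, 5.61% were higher and 5.2% lower. The median log2 fold change of the core clock list was -0.11. Higher were Bmal1 (0.64) and Cry1 (0.54), and lower were Ciart (-1.86), Nr1d1 (-0.996), Per3 (-0.80) and Nr1d2 (-0.70). Among 11 tested genes known as D-box or PAR bZIP targets, several of which are also core clock genes, 3 were lower (Per3, Nr1d1 and Nr1d2) and 1 was higher (Cry1), with a median of -0.07. The detoxification and cofactor genes that PAR bZIP proteins are known to activate in other tissues did not pass, with log2 differences of 0.37 for Pdxk (FDR = 0.120), 0.21 for Por (FDR = 0.0548), 0.10 for Alas1 (FDR = 0.345) and 0.15 for Abcb1a (FDR = 0.221). Of 9 rhythmic muscle output genes, Myod1, the myogenic factor gene, was higher (0.73, FDR = 0.0147), and Usp2 (-0.55, FDR = 0.0212) and Coq10b (-0.59, FDR = 0.0482) were lower.

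Of the related factors, all 10 tested C/EBP, ATF and HES/HEY genes had a log2 difference above 0, as did 6111 of the 12030 tested genes. The median of the 10 was 0.21. Of these 10, 1 passed, Atf4 (0.23, edgeR FDR = 0.0212), where 10.8% of all tested genes passed. Of 12 hypoxia-induced genes, chosen because the DEC genes are known to respond to hypoxia, Slc2a1 was higher (0.40, FDR = 0.0121) and Pfkfb3 lower (-0.81, FDR = 0.0452), with a median of 0.05. Of 14 tested immediate early genes, 9 were higher and 0 lower at that FDR, where 5.61% of all tested genes were higher, and their median was 0.55, Fos going from 2.24 ± 1.17 to 9.03 ± 11.6 FPKM (SD).

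Muscle fiber markers did not separate the groups, with 0 of 8 past the FDR and summed levels of 55649 to 75991 FPKM in LD and 55119 to 74162 in ADV. None of 5 adipocyte and 5 Schwann cell markers passed, although all 10 had log2 differences above 0 and their medians were 0.78 and 0.45. Summed adipocyte markers ranged from 28.3 to 168.6 FPKM in LD and from 19.2 to 285.9 in ADV, and summed Schwann cell markers in LD from 24.3 to 46.3 and in ADV from 25.99 to 80.7. Of 5 endothelial markers 2 were higher at that FDR (Pecam1 and Emcn), and all 5 had log2 differences above 0 (median 0.16). Of 5 fibroblast markers 1 was lower (Pdgfra, -0.24), and 0 of 5 had a log2 difference above 0 (median -0.12). Among leukocyte markers, 0 of 3 tested passed. At that FDR, 5.61% of all tested genes were higher and 5.2% lower, and 6111 of the 12030 had a log2 difference above 0. No marker was at 0 in every mouse, and the part of these lists in the differences of the 6 factors was not tested. Reads on exons numbered 19015401 to 28512674 per LD library and 18875468 to 25699604 per ADV library, and their share of each library's total was 91.2 ± 0.119% (SD) in LD and 91.5 ± 0.373% (SD) in ADV.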

How the data were processed

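Poly(A) stranded libraries of mouse gastrocnemius were sequenced by the authors as paired ends. Per their methods, reads were trimmed, mapped to GRCm39 with STAR (2.7.10a in the submitters' processing notes), filtered on mapping quality and assigned to exons of the UCSC canonical genes with HOMER (4.11), with no strand setting given in the sources used here. The authors deposited estimated counts, in which each read end counts as a fraction of a read, so that 14.8% were not whole, and FPKM values, which equal these counts per length and library total to within 5e-04.

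Each symbol was taken on its longest row with mean reads over 20, and genes with a mean FPKM over 0.5 were tested. Counts were rounded and fitted with edgeR 4.0.16 (quasi-likelihood, TMM, R 4.3.3), all 30 libraries, no covariate, FDR over 12030 genes, and genes past an FDR of 0.05 and a fold change of 1.3 were called differentially expressed, the limits of the study's own DESeq2 analysis. Spread was tested with limma 3.58.1 on absolute deviations of log2 CPM. Correlations used 100000 permutations of log2 CPM (prior count 2, scipy 1.17.1), two-sided. Gene models for exons, overlaps and motif places came from GENCODE vM39 on GRCm39, the build of the files. The scripts were tested on simulated data. Libraries were separate mice, and no pair of libraries agreed within sampling noise.

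Named genes were the 6 factors, Bmal1, Nr1d1 and Fos, the 3 most and 2 least alike genes of each factor, and up to 4 genes per list and direction with the smallest FDR, plus genes needed to complete a small count. Sphk2, and the group differences of the genes most like Nfil3 and Bhlhe40, were added after their values were seen. A core clock gene of the lists is not reported here. The factors and lists were chosen with earlier results of these data known. Alternatives were DESeq2 1.42.0, other size factors, no filter, summed rows, limma on log2(FPKM + 0.1), deviations from the mean for the spread, a GC trend offset, Bmal1 as covariate, a block on label numbers and leaving out each library.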

Additional observations from a re-analysis of the deposited data

How the results depend on the processing

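The direction of all 6 differences was the same under 10 alternatives and 30 fits that each left out 1 library. With a GC trend removed, 167 genes were differentially expressed in place of 252 and Hlf had a log2 difference of -0.32 (edgeR FDR = 0.0544). With Bmal1 as a covariate there were 45, and the differences no longer under an FDR of 0.05 were Dbp (-0.79), Tef (-0.17), Hlf (-0.13) and Bhlhe40 (-0.44). DESeq2 called 307 genes. Nfil3 passed under 10 of 10 alternatives (edgeR, limma or DESeq2 FDR from 3.89e-07 to 0.0362), and Bhlhe41 under 0 of 10 (FDR from 0.0670 to 0.760). Label numbers are shared by both groups, and whether they pair the mice is not given in the labels. The correlation of deviations between same-numbered libraries ranged from -0.26 to 0.43 over 14 pairs, and 6 of them were over 0.1. Of 14 LD libraries, 3 correlated best with their own number. These values cannot settle whether the numbers stand for pairs. The replicate block on these numbers gave 137 differentially expressed genes, the same 28 libraries without the block gave 151, and with the block the same 5 factors had an FDR under 0.05 (Dbp -1.55, Tef -0.25, Hlf -0.38, Nfil3 1.16, Bhlhe40 -0.62, Bhlhe41 -0.27). Hlf also passed the fold limit with the block and in the 28 libraries without it (-0.38 in both), and so counted as differentially expressed there.

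Leaving out 1 library at a time gave 190 (without LD 28) to 302 (without ADV 30) differentially expressed genes, and log2 differences of -1.76 to -1.52 for Dbp, -0.31 to -0.26 for Tef, -0.41 to -0.32 for Hlf, 1.19 to 1.35 for Nfil3, -0.70 to -0.59 for Bhlhe40 and -0.34 to -0.25 for Bhlhe41, whose FDR stayed between 0.0541 and 0.146. The difference in spread between mice, uncalled for every factor, changed sign for 3 of them, ranging from -0.032 to 0.027 for Hlf, -0.063 to 0.080 for Nfil3 and -0.021 to 0.045 for Bhlhe40, and on log2(FPKM + 0.1) it was 0.0017 for Nfil3 in place of -0.0024. It ranged from -0.37 to -0.15 for Dbp, -0.096 to -0.050 for Tef and -0.095 to -0.048 for Bhlhe41. In place of 12 within-group correlations, 4 passed without the 2 farthest mice, and on log2(FPKM + 0.1) 13 passed, Hlf with Nfil3 in LD among them. The cause of these changes was not tested. Reads per library were 226 to 501 for Hlf and 190 to 2340 for Dbp.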
